A study of Homo sapiens with 6 samples.

Results

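The 45 genes described here encode the machinery that copies DNA: the origin recognition complex, the helicase and its loaders and activators, the replicative polymerases with their clamp, and ribonucleotide reductase. Members were found by gene symbol in the deposited tables. Each matched 1 of 60640 gene identifiers, and all 45 were among the 12652 genes tested. They were measured by polyA RNA-seq in MOLT-4, an established cell line of human T-cell acute leukemia (T-ALL) that was kept in RPMI1640 with 10% FBS. The 3 wild type libraries come from the control of a CRISPR knockout. The 3 libraries labelled IK-KO come from cells in which IKZF1 was targeted with CRISPR-Cas. IKZF1 encodes IKAROS, a zinc finger transcription factor of lymphocytes. The study bought both lines from a supplier and blotted more than one knockout clone. Which clone gave these libraries is not stated, so other differences between the lines and the targeting of IKZF1 cannot be told apart. Nothing states that the libraries of a group are separate cultures, so p-values measure only the spread between these libraries.

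The values are FPKM, the number of fragments scaled by transcript length and by mapped fragments, which is a level per length and can be compared between genes. IKZF1 itself measured 134, 124 and 105 FPKM in wild type, and 207, 260 and 207 FPKM in IK-KO. Its RNA was thus higher and not lower in the targeted group (log2 change 0.89, SE 0.12, limma adjusted p 0.00295). An RNA level does not give the amount of protein, and the study reports PCR and western blot as its evidence that IKAROS was knocked out. The tables hold no sequence, so the edit cannot be read from them, and "IK-KO" below means the libraries so labelled. The 9 fixed T-lineage markers summed to between 1275 and 1336 FPKM in wild type and to between 1537 and 1733 FPKM in IK-KO, but they did not move as one. CD3D, CD3G, CD247 and PTCRA were called higher, with CD247 going from a mean of 66.0 to 246 FPKM. CD7, CD5 and TAL1 were called lower, at log2 changes of −1.72, −1.06 and −0.86, and CD3E and LCK were not called. The 4 B-cell markers stayed between 1.05 and 3.62 FPKM in sum, the 5 myeloid markers between 0.0842 and 0.617, the 4 erythroid markers between 0 and 0.688, with HBB at 0 in each library, and the 4 fibroblast or epithelial markers between 0.821 and 2.08, with COL1A2 and EPCAM at 0 in each. The part of these T-lineage differences in the values below was not tested. In bulk RNA, a different share of cells in S phase and a different amount of RNA per cell cannot be told apart.

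Replication starts at origins that are marked by the origin recognition complex. In G1, CDC6 and CDT1 help this complex to load the ring of MCM2 to MCM7 onto DNA, and geminin (GMNN) later blocks CDT1 so that origins fire only once in a cycle. The kinase CDC7 with its activator DBF4, together with CDC45, the GINS complex and MCM10, turns the loaded ring into a moving helicase. Polymerase alpha with primase lays down primers, polymerases delta and epsilon extend them on the PCNA clamp, and FEN1 and LIG1 join the Okazaki fragments. E2F factors switch on most of these genes as cells enter S phase. The series is titled as a study of heterochromatin and tumor suppression by IKAROS in leukemia, and the comparison asks how these transcripts differ once IKZF1 has been targeted.

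Transcripts of the replication machinery were abundant in both groups and differed little between them. All 45 members were above 10 FPKM in each of the 6 libraries, and their mean FPKM ran from 12.5 for ORC3 to 635 for PCNA. Of the 45, 6 were called at a limma adjusted p under 0.05, 5 higher (ORC6, CDT1, MCM3, GINS3 and POLA2) and 1 lower (MCM5). That is 13.3% of the members, against 19.9% of all tested genes (10.1% called higher and 9.75% called lower). The wild type and IK-KO libraries did not overlap in 15 members (33.3%), against 39.0% of all tested genes, and 16 (35.6%) had an unadjusted p under 0.05, against 33.4%. The median absolute log2 change was 0.10 over the members and 0.18 over all tested genes. The tested genes include low ones, down to a mean of 1 FPKM, and no set of genes matched to the members in level was compared. These shares describe the group, and no test of the group as a whole was made.

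The changes were also bounded. No member had an estimate of 2-fold or more, 38 of the 45 had an estimated change under 1.2-fold in either direction, and 22 had an absolute log2 change under 0.1. For 44 members, the 95% interval of the log2 change lay within 0.58 of 0, which is 1.5-fold in either direction. The exception was ORC4. These intervals are per gene and not adjusted for the number of genes. Summed over the 45 members, FPKM was 3510, 3650 and 3306 in wild type and 3611, 3630 and 3631 in IK-KO, so that the means differed by less than the spread of the wild type libraries (3489 ± 173 against 3624 ± 10.9 FPKM, SD, n = 3).

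**Figure D1:**
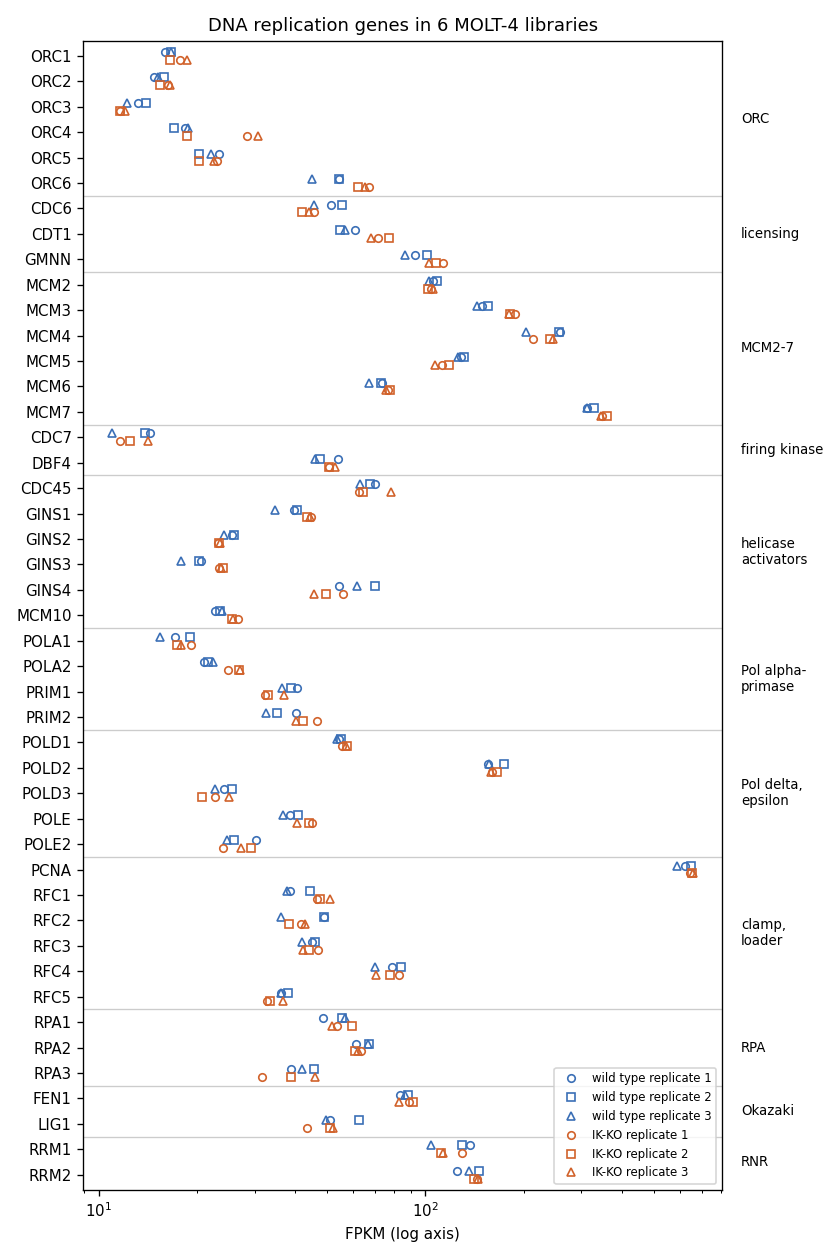
FPKM (log axis) of the 45 replication genes, 1 row per gene in order of role, with wild type libraries in blue and IK-KO libraries in orange and a symbol for each replicate. All points lie above 10 FPKM, PCNA stands apart at the top of the range, and for most genes both colours cover the same values.

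**Figure D2:**
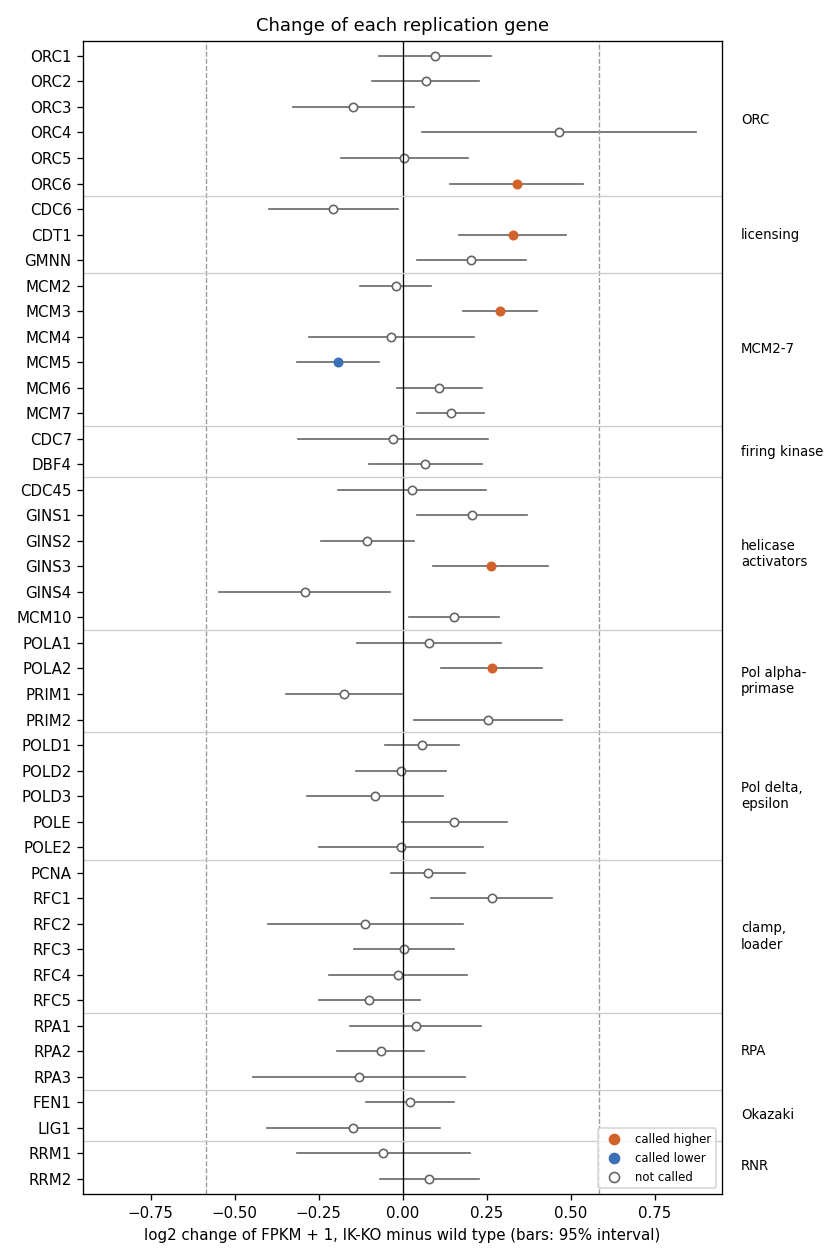
Log2 change of FPKM + 1, IK-KO minus wild type, for the 45 genes in the same order, with bars for the 95% interval of each and dashed lines at 1.5-fold. Filled points are the 5 genes called higher and the 1 called lower, and only the bar of ORC4 crosses a dashed line.

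Wild type replicate 3 stood somewhat apart. It was the lowest of the wild type libraries in 31 of the 45 members (68.9%) and in 54.9% of all tested genes, and the lowest of all 6 libraries in 20 members. Its median-of-ratios scale factor was 0.951, against 1.0 to 1.02 in the other 5 libraries. With that scaling, 10 members were called instead of 6, 8 higher and 2 lower, against 22.2% of all genes tested. CDC6, GINS1, GMNN and RFC1 were the 4 added. Without wild type replicate 3, 5 members were called: CDT1, MCM3, ORC6 and POLA2 higher and CDC6 lower. Leaving out 1 of the other 5 libraries left 3 members called when that library was replicate 1 or 2 of either group, and 2 when it was IK-KO replicate 3. Over all tested genes, 2042 were called without wild type replicate 3 and between 1720 and 1810 without 1 of the others, against 2515 with all 6 libraries.

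The origin recognition complex had 1 called member of 6. ORC6, the small subunit that joins the complex most loosely, measured 54.3, 54.6 and 45 FPKM in wild type, and 67.0, 62.4 and 65.3 FPKM in IK-KO. All IK-KO libraries were above all wild type libraries. ORC6, on chromosome 16 at 46689643 to 46698394 of GRCh38, rose (log2 change 0.34, SE 0.08, limma adjusted p 0.0298). The call was lost without any one of the IK-KO libraries, and adjusted p ranged from 0.0126 to 0.0918 over the alternatives.

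The largest estimated change of all members was in ORC4, a core ATPase-like subunit, and it was not called. ORC4 measured 18.4, 17.0 and 18.8 FPKM in wild type, and 28.4, 18.6 and 30.7 FPKM in IK-KO. IK-KO replicate 2 thus lay among the wild type libraries while the other two lay above them. The estimate was 0.47 on the log2 scale (95% interval 0.06 to 0.87, limma adjusted p 0.107), and without IK-KO replicate 2 it was 0.68 and called (adjusted p 0.00547). The confidence bounds that the authors deposited for ORC4 reached 20.7% of its value to either side, the widest among the members, and its exons overlap those of ACVR2A and MBD5 on the opposite strand.

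ORC1, the ATPase subunit that comes and goes with the cell cycle, was at 16.4 ± 0.425 FPKM in wild type and 17.7 ± 1.07 FPKM in IK-KO (SD, n = 3), with a log2 change of 0.10. ORC2 and ORC5 had changes of 0.07 and 0.00, and the groups of both overlapped. ORC3 was at 13.3, 14 and 12.2 FPKM against 11.6, 11.6 and 12 FPKM. The groups did not overlap, yet the log2 change of −0.15 was not called (limma adjusted p 0.230). The levels of the 6 subunits were uneven: ORC6 was at between 3.68 and 4.1 times the FPKM of ORC3 in wild type and at between 5.37 and 5.75 times in IK-KO, whereas ORC1, ORC2 and ORC3 all lay under 20 FPKM.

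Among the licensing factors, CDT1 rose. CDT1, which brings the helicase ring to the origin, measured 61.0, 54.6 and 56.7 FPKM in wild type, and 71.5, 77.3 and 68.2 FPKM in IK-KO. The lowest IK-KO library was above the highest wild type library. CDT1 lies at 88803789 to 88809258 of chromosome 16, and its rise (log2 change 0.33, SE 0.07, limma adjusted p 0.0156) was not called without wild type replicate 2 or without IK-KO replicate 2 (adjusted p at most 0.0536).

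Geminin, the inhibitor of CDT1, measured 92.9, 101 and 86.7 FPKM, and 113, 108 and 103 FPKM in IK-KO. These groups did not overlap either, but the log2 change of 0.20 was not called (limma adjusted p 0.0820). The ratio of CDT1 to GMNN lay between 0.541 and 0.657 in wild type and between 0.633 and 0.717 in IK-KO, so the ranges overlapped. CDC6, the ATPase that completes the loader, was at 51.4, 55.6 and 45.5 FPKM against 45.5, 41.8 and 44.1 FPKM. Its log2 change of −0.21 was not called (limma adjusted p 0.127).

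Within the helicase ring, neighbouring subunits went opposite ways. MCM3 measured 149, 155 and 144 FPKM in wild type, and 188, 181 and 180 FPKM in IK-KO, and the groups were well apart. MCM3 (chromosome 6, 52264014 to 52284881) had the lowest adjusted p of the members (log2 change 0.29, SE 0.05, limma adjusted p 0.00606) and kept its call in each fit that left out a library. It lost the call when the change of its chromosomal neighbours was removed, as described below. MCM5, which sits next to MCM3 in the ring, measured 128, 131 and 126 FPKM in wild type, and 113, 118 and 107 FPKM in IK-KO. MCM5 (chromosome 22, 35400134 to 35425431) fell by 0.19 on the log2 scale (SE 0.05, limma adjusted p 0.0405), a small change that was still called in only 1 of the 6 fits that left out a library, that without IK-KO replicate 2. The ratio of MCM3 to MCM5 was 1.16, 1.18 and 1.14 in wild type and 1.67, 1.53 and 1.68 in IK-KO.

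The other subunits of the ring were not called. MCM2 was at 105, 108 and 103 FPKM against 104, 102 and 106 FPKM, a log2 change of −0.02 with a 95% interval from −0.13 to 0.08. MCM7, the most abundant of the ring, was at 312, 328 and 312 FPKM against 347, 360 and 344 FPKM. Its groups did not overlap and its log2 change of 0.14 just missed the threshold (limma adjusted p 0.0547). It shares exonic sequence with AP4M1 on the opposite strand. MCM6 (log2 change 0.11) and MCM4 (−0.03) had adjusted p-values of 0.205 and 0.863. Although the ring holds each subunit in equal number, the RNA levels differed widely. MCM7 made up 31.4 ± 1.15% of the summed FPKM of MCM2 to MCM7 in wild type and MCM6 made up 7.06 ± 0.125%. In IK-KO the shares were 33.1 ± 0.457% and 7.27 ± 0.118%. The share of MCM3 went from 14.8 ± 0.279% to 17.3 ± 0.664% and that of MCM5 from 12.7 ± 0.409% to 10.6 ± 0.455% (SD, n = 3 throughout). The sum itself was 1011 ± 50.8 FPKM in wild type and 1059 ± 18.7 FPKM in IK-KO.

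The origin firing kinase was not called in either subunit. DBF4, the activator, was at 54.0, 47.7 and 45.8 FPKM against 50.7, 50.6 and 53.0 FPKM (log2 change 0.07, limma adjusted p 0.557). CDC7, the catalytic subunit, was at 14.4, 13.8 and 11 FPKM against 11.7, 12.4 and 14.2 FPKM (log2 change −0.03, adjusted p 0.896). Both ranges overlapped, and DBF4 was at between 3.44 and 4.34 times the FPKM of CDC7 in each library.

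Of the helicase activators, GINS3 rose. It measured 20.6, 20.4 and 17.9 FPKM in wild type, and 23.4, 24.0 and 23.6 FPKM in IK-KO, without overlap. GINS3 lies at 58295080 to 58406144 of chromosome 16, and its call was the weakest (log2 change 0.26, SE 0.07, limma adjusted p 0.0442). It was lost in all 6 fits that left out a library and in 9 of the 15 alternatives. The other subunits of the GINS complex, which bridges the helicase and polymerase epsilon, did not share one direction. GINS1 had a log2 change of 0.21 (limma adjusted p 0.0826), GINS2 of −0.10 (0.262) and GINS4 of −0.29 (0.106). GINS4, the most negative estimate of all members, was at 54.5, 70.1 and 61.6 FPKM against 55.8, 49.7 and 45.7 FPKM. Over the 6 libraries, its deposited bounds reached from 16.4% to 19.3% of its value. CDC45, a further part of the active helicase, had a change of 0.03 with an interval from −0.19 to 0.25, and MCM10, a firing factor, one of 0.15 (limma adjusted p 0.106).

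Polymerase alpha-primase had 1 called member of 4. POLA2, the regulatory subunit of polymerase alpha, measured 21.1, 21.6 and 22.4 FPKM in wild type, and 24.8, 26.9 and 27.1 FPKM in IK-KO, without overlap. POLA2 lies at 65261920 to 65305589 of chromosome 11, and its call (log2 change 0.26, SE 0.06, limma adjusted p 0.0273) was lost in 4 of the 6 fits that left out a library, those without replicate 1 or 2 of wild type and replicate 2 or 3 of IK-KO. POLA1, the catalytic subunit, was at 17.2, 19.0 and 15.4 FPKM against 19.2, 17.3 and 17.9 FPKM (log2 change 0.08, limma adjusted p 0.603). PRIM1 and PRIM2, the small and large primase subunits, had log2 changes of −0.17 and 0.25 with adjusted p-values of 0.146 and 0.103. Exonic positions of POLA2 and PRIM1, and of the called GINS3, are shared with other genes.

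None of the 5 members that encode subunits of polymerases delta and epsilon, which copy the lagging and the leading strand, was called. The largest change was in POLE, the catalytic subunit of polymerase epsilon, at 38.5, 40.8 and 36.7 FPKM against 44.8, 44.2 and 40.4 FPKM (log2 change 0.15, limma adjusted p 0.158). The groups overlapped by little. POLE2 and POLD2, accessory subunits, both had log2 changes of −0.01 or closer to 0, POLD1 one of 0.06 and POLD3 one of −0.08. POLD2 stood well above the other 4, at between 156 and 174 FPKM, while POLD3 lay between 20.7 and 25.6 FPKM. The subunits POLD4, POLE3 and POLE4 are not members and are described below, and of these POLE3 was called lower.

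The sliding clamp PCNA was the most abundant member, at 623, 647 and 586 FPKM in wild type and 644, 654 and 657 FPKM in IK-KO. Its lowest value lay above the highest value of any other member, which was 360 FPKM for MCM7. The groups overlapped, and the log2 change of 0.08 (95% interval −0.03 to 0.19, limma adjusted p 0.311) was not called. RFC1, the large subunit of the loader that opens the clamp, was at 38.6, 44.3 and 37.7 FPKM against 46.7, 47.5 and 51.1 FPKM. Its groups did not overlap and its log2 change of 0.27 missed the threshold by little (limma adjusted p 0.0508). It was called in 4 of the 15 alternatives. The small loader subunits RFC2 to RFC5 had changes of −0.11, 0.00, −0.01 and −0.10, all with overlapping groups.

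The subunits of RPA, which coats single-stranded DNA, were not called, with log2 changes of 0.04 for RPA1, −0.07 for RPA2 and −0.13 for RPA3. RPA3 was at 38.7, 45.8 and 41.9 FPKM against 31.6, 38.7 and 45.9 FPKM, and its IK-KO libraries spread more widely than the groups differed. FEN1, the flap nuclease, was at 83.6, 88.7 and 86.8 FPKM against 88.7, 91.7 and 82.8 FPKM (log2 change 0.02). LIG1, the ligase, was at 50.9, 62.4 and 49.6 FPKM against 43.4, 51.1 and 52.1 FPKM (log2 change −0.15, limma adjusted p 0.40). Both pairs of groups overlapped.

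Ribonucleotide reductase, which makes deoxynucleotides, was not called in either subunit. RRM2, the subunit that is made in S phase, measured 125, 146 and 136 FPKM in wild type, and 144, 141 and 145 FPKM in IK-KO (log2 change 0.08, limma adjusted p 0.422). RRM1, the large subunit, was at 136, 129 and 104 FPKM against 129, 111 and 113 FPKM (log2 change −0.06, limma adjusted p 0.763). The ratio of RRM2 to RRM1 ran from 0.914 to 1.31 in wild type and from 1.11 to 1.28 in IK-KO.

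Position on the chromosome moved with some of these values. The median log2 change was 0.21 over the 655 tested genes of chromosome 6 and −0.35 over the 469 of chromosome 9. Of the members, 4 lie on chromosome 6 and 0 on chromosome 9. For each member, the median change of the 25 nearest tested genes on each side was computed. It was 0.22 around MCM3, 0.30 around GMNN, 0.12 around PRIM2 and 0.01 around ORC3. With it removed, the log2 change of MCM3 was 0.07 (limma adjusted p 0.401), that of GMNN was −0.09 and that of PRIM2 was 0.13. On chromosome 17, CDC6 had neighbours at −0.17 and a remaining change of −0.03. The neighbours of PRIM1 on chromosome 12 were at 0.13, and PRIM1 was then called lower, at −0.30 (adjusted p 0.0335). CDT1, GINS3 and POLA2, with neighbours between −0.06 and 0.01, were still called. ORC6 and MCM5 had neighbours at 0.07 and −0.05. Their remaining changes of 0.27 and −0.14 were not called (limma adjusted p 0.0707 and 0.120). What moves with position here was not tested.

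**Figure D3:**
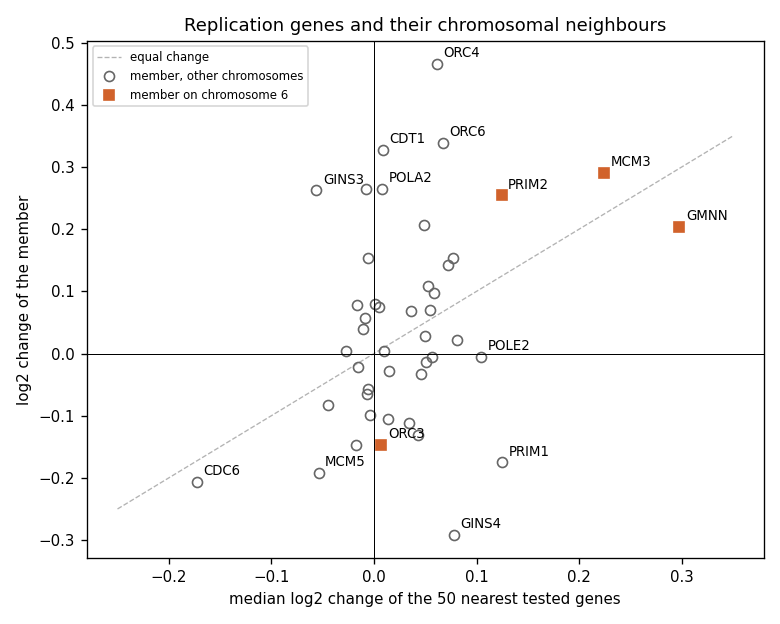
Log2 change of each of the 45 genes against the median log2 change of its nearest tested genes, 25 on each side, with the 4 members on chromosome 6 as squares and a dashed line of equal change. MCM3, GMNN, PRIM2 and PRIM1 lie to the right with neighbours at 0.12 or above. PRIM1 is on chromosome 12 and has a change of −0.17 itself. CDC6 lies to the left at −0.17, and CDT1, GINS3 and POLA2 lie well above neighbours near 0.

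E2F sites, matched as letters, were common in the promoters of the members but not present in all. RefSeq promoter windows on GRCh38.p14, from 250 bases before to 50 bases after the start site, were found for 39 of the 45 genes, 50 windows in all. They were searched on both strands for the E2F sites TTCCCGC as well as TTGGCGC, along with TTCGCGC and lastly also TTGCCGC. At least 1 site was present in 30 of the 50 windows (60.0%), belonging to 28 genes, against 13.0% of the 35116 windows of all genes. CCAAT was present in 56.0% of the windows against 34.6%, the cell cycle homology letters TTTGAA in 4.0% against 15.2%, and the IKAROS core letters TGGGAA in 28.0% against 24.0%. Of the 5 called members with a window, CDT1, POLA2, MCM3 and GINS3 held an E2F match and ORC6 held none. Such a match is a string of letters and not a measured binding site. The windows of all genes were not matched to those of the members in base composition.

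The 100 bases before the start site are given for members that rose and for members that were not called, so that their E2F matches (in capitals) can be set side by side. Positions count back from the start site. CDT1 lies on the plus strand at chr16:88803689-88803788, POLA2 on the plus strand at chr11:65261862-65261961, MCM3 on the minus strand at chr6:52284743-52284842 and ORC6 on the plus strand at chr16:46689559-46689658. MCM6, ORC1 and PCNA lie on the minus strand at chr2:135876444-135876543, chr1:52404424-52404523 and chr20:5126623-5126722.
CDT1: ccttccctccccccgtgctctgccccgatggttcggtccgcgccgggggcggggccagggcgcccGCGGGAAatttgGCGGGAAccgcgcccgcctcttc
POLA2: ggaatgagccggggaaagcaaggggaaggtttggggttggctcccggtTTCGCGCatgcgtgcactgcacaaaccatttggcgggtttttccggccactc
MCM3: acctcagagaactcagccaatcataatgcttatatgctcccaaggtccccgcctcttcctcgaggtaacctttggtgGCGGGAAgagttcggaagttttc
ORC6: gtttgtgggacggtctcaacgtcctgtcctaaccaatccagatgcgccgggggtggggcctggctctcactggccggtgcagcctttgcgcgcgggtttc
MCM6: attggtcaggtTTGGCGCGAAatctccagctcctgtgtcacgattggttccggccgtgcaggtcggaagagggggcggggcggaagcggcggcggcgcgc
ORC1: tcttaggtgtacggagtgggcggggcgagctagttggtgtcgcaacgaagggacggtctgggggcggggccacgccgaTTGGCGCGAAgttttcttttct
PCNA: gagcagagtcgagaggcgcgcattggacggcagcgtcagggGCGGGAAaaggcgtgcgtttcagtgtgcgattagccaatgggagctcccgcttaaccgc
CDT1 holds its matches at positions −35 and −23, POLA2 at −52, MCM3 at −23 and PCNA at −59. A further match in MCM3 starts at −3 and runs past the end of the printed stretch, so it is left in lower case, and matches of MCM3 and MCM6 that lie before the printed bases are not shown. In MCM6 and ORC1 a pair of matches on opposite strands overlaps, starting at −89 and −86 and at −22 and −19. The letters in capitals in CDT1 and MCM3, which were called higher, are those of PCNA, which was not called.

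The other genes of the pathway, 90 in 11 lists by role, were examined next. Of these, 87 were tested and 16 were called, 10 higher and 6 lower, which is 18.4% against 19.9% of all tested genes. RPA4 and SAMHD1 were under 1 FPKM in each library, and UHRF1 was not tested because at least 1 of its estimates failed. No gene was called among 8 origin licensing and firing factors, 13 fork protection and checkpoint genes, 4 alternative clamp loaders, 6 genes of Okazaki fragment and primer processing and 4 topoisomerases. Their largest absolute log2 change was 0.29, in WEE1, a kinase that restrains CDK activity.

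In the list of G1/S transcription control 6 of 13 genes were called, 4 higher and 2 lower, which is 46.2% against 19.9% of all tested genes. It is the highest share of the lists by role, which were chosen with earlier results of these data known. The share therefore describes this list and is not independent evidence about it. E2F5, a repressor-type E2F, measured 8.53, 7.93 and 6.21 FPKM in wild type, and 12, 11.5 and 14.2 FPKM in IK-KO (log2 change 0.67, SE 0.13, limma adjusted p 0.0125). TFDP2, a dimer partner of E2F factors, measured 169, 164 and 160 FPKM, and 111, 120 and 120 FPKM in IK-KO (log2 change −0.49, SE 0.05, limma adjusted p 0.000914). The groups of both stood apart. The other calls in this list, named after their values were seen, were E2F3 (0.65), E2F6 (0.43) and RB1 (0.39) higher and E2F7 (−0.30) lower. E2F3 lies on chromosome 6, with neighbours at 0.22, and was still called with them removed (0.43, adjusted p 0.00908). E2F1 and E2F2, activators of S-phase genes, were not called, with changes of −0.04 and 0.11, nor was TFDP1 at −0.02. Whether the lists differ from each other was not tested.

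**Figure D4:**
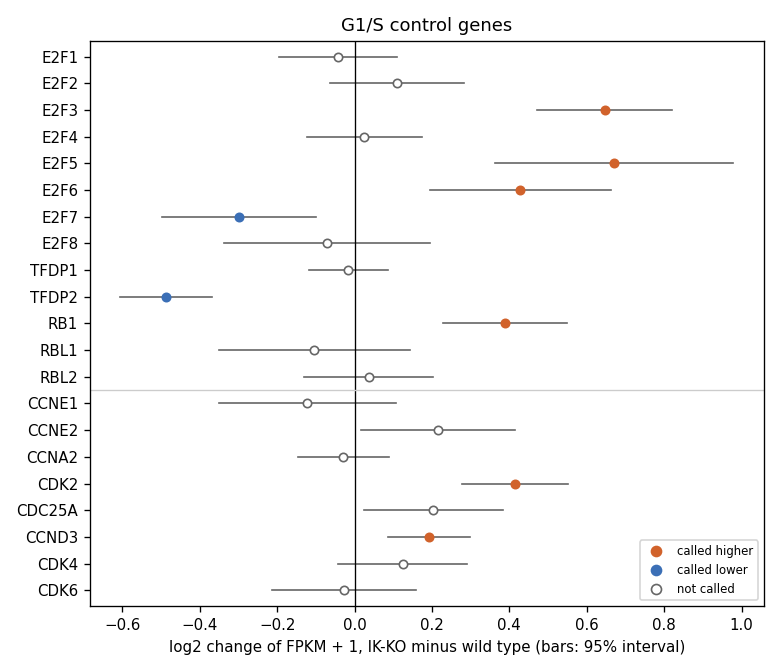
Log2 change of FPKM + 1, IK-KO minus wild type, with 95% intervals for the G1/S transcription control genes (upper block) and the G1/S cyclins, kinases and phosphatase (lower block). E2F3 and E2F5 lie farthest to the right at 0.65 and 0.67 and TFDP2 farthest to the left at −0.49.

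Calls in the remaining lists ranged from 9.09% of the tested genes for deoxynucleotide supply to 36.4% for chromatin assembly. Of the 8 G1/S cyclins, kinases and phosphatase, 2 were called, CDK2 at 67.9, 66.8 and 62.1 FPKM against 84.6, 86.3 and 92.4 FPKM (log2 change 0.41, limma adjusted p 0.00354) and CCND3 (0.19), which lies on chromosome 6 among neighbours at 0.28 and was at −0.09, the opposite sign, and not called once these were removed (adjusted p 0.234). Of the 11 tested chromatin assembly genes, 4 were called. ASF1A, a histone chaperone, rose by 0.35 on the log2 scale and MMS22L, which acts at stressed forks, fell by 0.50, both on chromosome 6 with neighbours at 0.20 and 0.06, and ASF1A was not called with its neighbours removed (adjusted p 0.239). RBBP4 (0.27) and DNMT1 (−0.31) were the others. Of the 6 genes of licensing control by degradation, FBXO5, an inhibitor of the ligase that degrades geminin, rose by 0.40 and CUL4B by 0.34. FBXO5 lies on chromosome 6 and was at 0.21 with its neighbours removed (adjusted p 0.0771). Of the 11 tested genes of deoxynucleotide supply, DCTD, a deoxycytidylate deaminase, fell by 0.34 (limma adjusted p 0.0405), and TYMS and TK1 had changes of 0.01 and −0.04 that were not called. Of the 3 tested polymerase subunits outside the members, POLE3 fell by 0.35 (limma adjusted p 0.00844). It lies on chromosome 9 among neighbours at −0.39, and its change with them removed was 0.04 (adjusted p 0.681). POLD4 and POLE4 also had lower IK-KO values without overlap, but neither was called. Their log2 changes were −0.33 and −0.28 (limma adjusted p 0.0591 and 0.0797). With their neighbours removed these were −0.35 and −0.22, again not called (limma adjusted p 0.0559 and 0.170).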

How the data were processed

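The authors deposited 1 gene table of FPKM per library, in the layout of Cufflinks, with confidence bounds and an estimation status. The submitters' processing notes name STAR 2.6.1c, Cufflinks 2.2.1, HOMER 4.10 and hg38, with no role or order. The annotation release and the strand setting are not given in the sources used here, so overlapping genes are uncertain: 21 members share exonic positions with another gene, 18 of them on the opposite strand. Identifiers with the same version in GENCODE release 44 (49727) all lie at its position on GRCh38. No counts are given, so no count model was used. FPKM summed to between 699352 and 738051 per library, and the deposited bounds of the members reached from 3.91% to 20.7% of the value. The 14 pseudogenes named after members were at most at 0.361 FPKM.

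Rows of a gene were summed (110 identifiers), 29 genes with failed estimates were left out, and the test, limma 3.58.1 in R 4.3.3, took genes whose FPKM averaged 1 or more, as log2(FPKM + 1) (trend, two-sided, Benjamini-Hochberg over 12652 genes). The fit was tested on simulated data, but how often it misses changes as small as those of the members is not given here. Fold changes on this scale understate those of low genes. Members and lists were chosen with earlier results of these data known. Values per library are given for called members and, in role groups without one, for the largest change; of each other list the largest called change in each direction was named, and further genes were chosen after their values were seen.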

Additional observations from a re-analysis of the deposited data

How the results depend on the processing

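All 15 alternatives were planned. No called member changed sign in any of them. The count of 6 called members was 3 (3 higher, 0 lower) with no filter on low values, where 2011 of 27286 genes were called. Without the mean-variance trend it was also 3 (3 higher, 0 lower), with 2240 of 12652 genes called. With median-of-ratios scaling it was 10 (8 higher, 2 lower), with 2803 of 12652 genes called. With the change of chromosomal neighbours removed it was 4, of which 3 higher, with 2087 of 12652 genes called. The labels do not say whether same-numbered libraries were paired, and the main fit did not pair them. Correlations of their deviations from the group means were 0.0669, 0.0248 and 0.00546. Those of wild type and IK-KO libraries with unlike numbers ran from −0.0878 to 0.0599. Such values cannot settle whether the libraries were prepared in pairs. With the replicate block 2 members were called, 2 higher and 0 lower (CDT1 and MCM3), and 1805 genes against 2515. When 1 library was left out, called members numbered 2 to 5, higher 2 to 4 and lower 0 to 1, with 1720 to 2042 of all genes called. Other replication genes called numbered 8 to 13 against 16. With no filter, 9 of those were called. The count of all called genes stayed between 1720 and 2803. Signs changed only in uncalled members, 13 in all. With median-of-ratios scaling, the log2 change stood for ORC5 at −0.012 and RFC3 at −0.013. With a common sum outside the mitochondrial genome, the log2 change stood for ORC5 at −0.026, CDC45 at −0.0041, RFC3 at −0.027 and FEN1 at −0.010. With neighbours' median change removed, it stood for GMNN at −0.093, CDC45 at −0.022, RFC3 at −0.0053 and FEN1 at −0.059. When 1 library was left out, log2 changes ran for ORC5 from −0.047 to 0.057, MCM4 from −0.15 to 0.029, CDC7 from −0.14 to 0.039, CDC45 from −0.073 to 0.089, POLD2 from −0.033 to 0.046, POLE2 from −0.068 to 0.081, RFC3 from −0.034 to 0.038, RFC4 from −0.085 to 0.047, RPA1 from −0.031 to 0.081, RPA3 from −0.26 to 0.0045, FEN1 from −0.010 to 0.063 and RRM1 from −0.17 to 0.021. The causes of these shifts were not tested.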
